A study of Peromyscus californicus with 17 samples.

Results

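Interferon response genes were examined in the lungs of 17 male P. californicus, a monogamous deer mouse. The 9 members were given by symbol, with earlier results of these data known: Stat2, Irf1, Irf7, Irf9, Isg15, Ifih1, Rsad2, Ifi44 and Usp18. Of these, 8 were measured among the 27786 genes of the table used, and Irf9 was not analysed here. All animals were of stock IS, were 12 to 15 months old and gave 1 lung RNA library each. The 6 bonded animals (B1 to B6) had lived with a female for 4 months. The 6 bond-disrupted animals (BD1 to BD6) had been paired for the same time, were then taken from the mating cage, and their lungs were collected on day 7 after that. The 5 virgins (V2 to V6) had no mate and were housed 3 to a cage per the sample labels, though the study's text also speaks of smaller groups. Animals of different groups that bear the same number are relatives in the study's description, siblings in most families and cousins for some virgins. A bonded lung differs from a virgin one in mating and in cage mates at once, so that the effects of these cannot be told apart. A bond-disrupted male lost its mate and left the mating cage at once, and how it was housed afterwards is not in the labels, so that mate loss and housing cannot be told apart either.

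Type I interferons are secreted when a cell senses viral nucleic acid, and they act on neighbouring cells through surface receptors. In the type I pathway the receptor's kinases activate STAT2, which acts with IRF9 to switch on interferon-stimulated genes, and type II interferon induces IRF1. The lung keeps a low level of this programme running at rest, and the products include sensors, transcription factors, antiviral enzymes and feedback inhibitors. Among the members, Stat2, Irf1 and Irf7 encode transcription factors and Ifih1 encodes MDA5, a sensor of long double-stranded RNA. Isg15 encodes a ubiquitin-like protein, Usp18 the protease that removes it and that also restrains the type I receptor. Rsad2 encodes viperin, an antiviral enzyme, and Ifi44 an interferon-induced antiviral protein.

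The deposited values are FPKM, that is, fragment counts scaled to gene length and to library size, but each animal's column had been divided by the length of another gene. The first column used the length of the gene 1 row above and the last that of the gene 17 rows above. Reads were therefore recovered from the values and divided by each gene's own length, which gave 25037 genes with all 17 values. For the members, 136 of 136 values came out within 0.02 of a whole number of reads, against 3 of 136 when the gene's own length was put into the deposited values. The recovered depth was 30.8 to 68.2 among the bonded, 43.9 to 59.4 among the bond-disrupted and 38.0 to 44.9 among the virgin libraries, in units of 1000000 reads. The members had between 52 reads (the lowest Rsad2 value) and 7218 reads (the highest Irf1 value) per animal. All 8 members were above 0 in all 17 animals, and lung markers were abundant, with Sftpc at 12001 FPKM or more in each animal. In bulk lung, fewer cells of a type and less RNA per cell cannot be told apart.

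Per length, Stat2 stood highest, at 20.7 ± 2.73 FPKM (SD, n = 17), and Irf7 followed at 18.4 ± 5.13 FPKM. These neighbours did not differ beyond their spread. Ifi44 (14.5 ± 3.82 FPKM) and Irf1 (14.3 ± 3.03 FPKM) came next and lay within each other's spread as well. Ifih1, at 7.64 ± 1.06 FPKM, stood clear of them. Isg15 (3.49 ± 0.997 FPKM) and Usp18 (3.29 ± 1.15 FPKM) could not be separated from each other. Rsad2 was lowest, at 0.992 ± 0.515 FPKM, which is near the level of 1 FPKM that a gene had to reach in at least 1 animal to be tested.

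**Figure D1:**
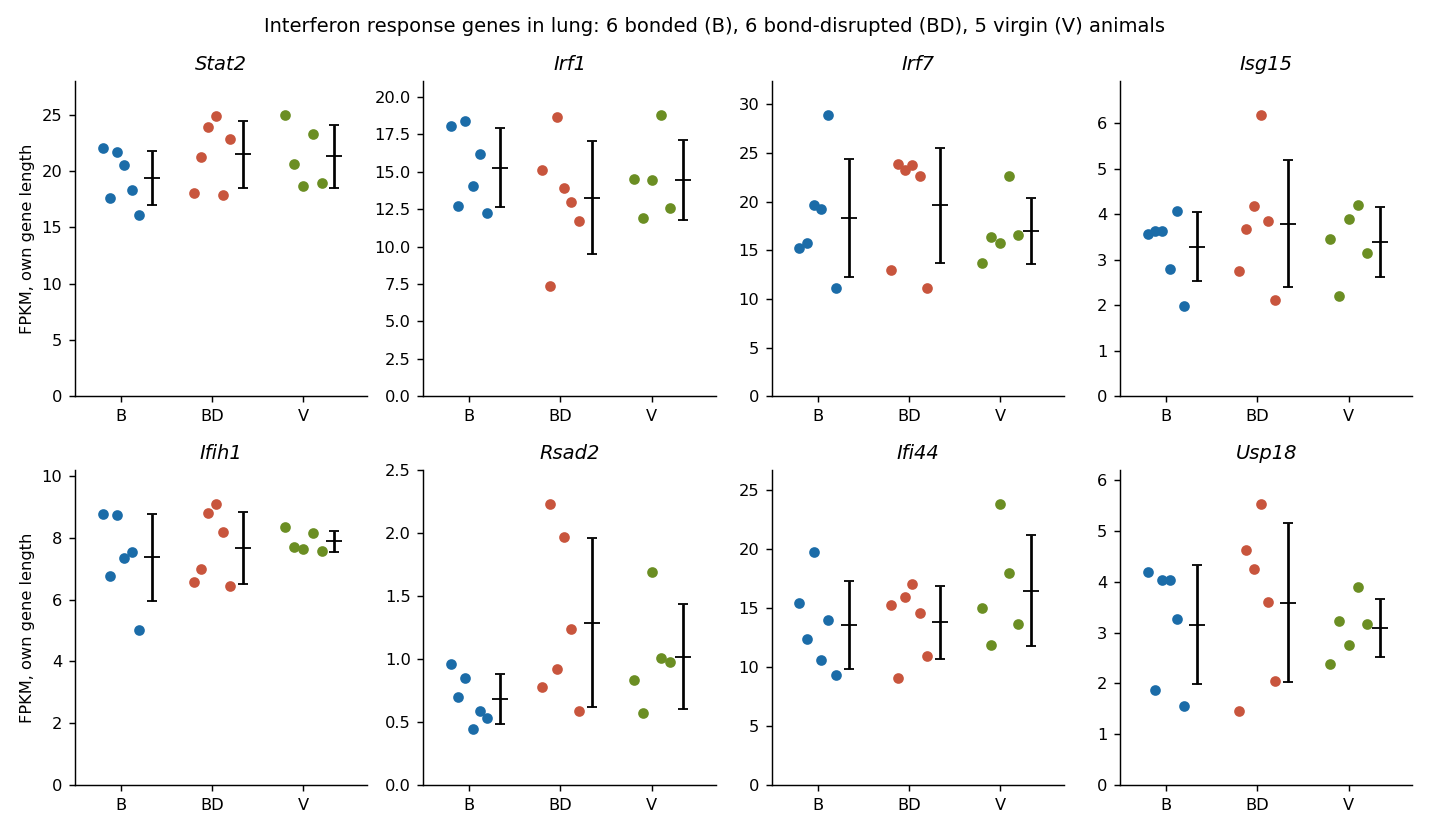
FPKM with each gene's own length (y axis, from 0) of the 8 measured genes in bonded (B, n = 6), bond-disrupted (BD, n = 6) and virgin (V, n = 5) animals. Each point is 1 animal, and the black mark with its bar is the group mean ± SD. The groups overlap for every gene, and the Rsad2 values of BD2 (2.23) and BD4 (1.96) lie above all others.

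The comparison of bond-disrupted with bonded lungs asks what separation from a mate changes. No member was called at an adjusted p under 0.1 and a change of at least 2-fold (0 of 8), as was the case for 0% of the 14695 genes tested (limma, lowest adjusted p 0.489). At an unadjusted p under 0.05 it was 5.88% of all genes and, of the members, Rsad2. No bonded animal reached 1 FPKM of Rsad2, so that this gene entered the limma test only through the groups where it was higher, and its values are given as a description. By limma's voom on the recovered reads, which needed a mean of 10 reads, 0% of 16829 genes were called, and an unadjusted p under 0.05 was found for 6.39% of genes and, of the members, for Rsad2. The ranges of the groups overlapped for 8 of 8 members, where 0.272% of all genes had groups that did not overlap.

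Rsad2 ranged from 0.442 FPKM (B4) to 0.963 FPKM (B1) in bonded lungs, with a median of 0.644. In bond-disrupted lungs it ranged from 0.585 FPKM (BD6) to 2.23 FPKM (BD2), with a median of 1.08. BD2, BD4 and BD5 lay above all bonded animals and the other 3 lay among them. Mean Rsad2 was 1.29 ± 0.670 FPKM in bond-disrupted lungs and 0.679 ± 0.199 FPKM in bonded lungs, a ratio of 1.89. On the log2(FPKM + 1) scale, which understates changes of low genes, the difference was 0.40 ± 0.17 (SE; limma, adjusted p = 0.812). On recovered reads, voom gave 0.80 ± 0.35 (SE; adjusted p = 0.777). Without BD2 the limma difference was 0.29 (adjusted p = 0.680) and without BD4 it was 0.32 (adjusted p = 0.941). With no filter on low values the adjusted p was 0.888, and with a filter on the mean Rsad2 was not tested. Its unadjusted p was no longer under 0.05 when BD2, BD4, B4 or B6 was left out.

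The transcription factors gave no larger difference between these groups. Stat2, which carries the type I signal to the nucleus, ranged from 16.1 FPKM (B6) to 22.1 FPKM (B1) in bonded lungs with a median of 19.4. In bond-disrupted lungs it ranged from 17.9 FPKM (BD5) to 24.9 FPKM (BD4) with a median of 22.0. The log2 difference was 0.14 ± 0.10 (limma, adjusted p = 0.879), and the groups overlapped.

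Irf1, which switches on type II interferon targets, had a median of 15.1 FPKM in bonded lungs, between 12.3 (B6) and 18.4 (B3). Its median was 13.4 FPKM in bond-disrupted lungs, between 7.33 (BD2) and 18.6 (BD3). Irf1 was thus the member with a lower mean after disruption (13.3 ± 3.75 against 15.3 ± 2.66 FPKM), by −0.22 ± 0.17 on the log2(FPKM + 1) scale (adjusted p = 0.879). Without BD2 this difference shrank to −0.07.

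Irf7, the factor that amplifies interferon production, fell into separate levels among bond-disrupted lungs: 4 animals lay between 22.7 and 23.8 FPKM, while BD1 had 13.0 and BD6 had 11.2. Bonded lungs ranged from 11.1 FPKM (B6) to 28.9 FPKM (B5), with a median of 17.5, and so enclosed the bond-disrupted values on both sides. The log2 difference was 0.09 ± 0.22 (adjusted p = 0.970).

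The sensor gene Ifih1 ranged from 5.02 FPKM (B6) to 8.79 FPKM (B1) in bonded lungs and from 6.44 FPKM (BD6) to 9.12 FPKM (BD4) in bond-disrupted lungs. Its log2 difference was 0.06 ± 0.11 (limma, adjusted p = 0.956). Isg15 ranged from 1.99 FPKM (B6) to 4.07 FPKM (B5) in bonded lungs and from 2.11 FPKM (BD6) to 6.19 FPKM (BD4) in bond-disrupted lungs. The difference for Isg15 was 0.13 ± 0.18 (adjusted p = 0.936), and it was 0.01 without BD4.

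Usp18, the protease that opposes Isg15, ranged from 1.56 FPKM (B6) to 4.20 FPKM (B1) in bonded lungs, with a median of 3.65. It ranged from 1.46 FPKM (BD1) to 5.55 FPKM (BD4) in bond-disrupted lungs, with a median of 3.93. These ranges nearly coincide at the lower end, and the difference was 0.12 ± 0.24 (adjusted p = 0.962). Ifi44 had a mean of 13.8 ± 3.10 FPKM in bond-disrupted and 13.5 ± 3.75 FPKM in bonded lungs, a difference of 0.03 ± 0.19 (adjusted p = 0.988).

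Over the members, 7 of 8 differences between bond-disrupted and bonded lungs were above 0. Their median was 0.10 on the log2(FPKM + 1) scale, where the median of all genes was 0.01. Without B6, 3 of 8 were above 0. The members share the same animals and vary together among them, so that this count is not made of 8 independent observations.

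Virgin and bonded lungs were compared to ask what a lasting bond changes against none. No member was called (0 of 8), as was the case for 0% of all genes tested (limma, lowest adjusted p 0.804), and voom called 0% as well. No member had an unadjusted p under 0.05, against 3.74% of all genes by limma and 3.61% by voom, and the groups overlapped for 8 of 8 members (0.517% of all genes did not overlap). On the log2(FPKM + 1) scale Ifi44 differed most, whereas by voom Rsad2 did (0.51 against 0.24 for Ifi44). In the 5 virgins Ifi44 was 14.996 FPKM (V2), 11.8 (V3), 23.8 (V4), 17.9 (V5) and 13.6 (V6), and in bonded lungs it ran from 9.29 FPKM (B6) to 19.7 FPKM (B3). V4 lay above all bonded animals and the other virgins lay among them. The log2 difference was 0.26 ± 0.20 (adjusted p = 1.00), and it was 0.12 without V4.

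Rsad2 was 0.834 FPKM in V2, 0.571 in V3, 1.69 in V4, 1.01 in V5 and 0.979 in V6. V4, V5 and V6 lay above the highest bonded value, and the log2 difference of virgins from bonded animals was 0.25 ± 0.18 (limma, adjusted p = 1.00). It was 0.14 without V4. Ifih1 was 8.36 FPKM in V2, 7.70 in V3, 7.66 in V4, 8.16 in V5 and 7.59 in V6, a narrow range that lay wholly inside that of the bonded animals. The remaining members (Stat2, Irf1, Irf7, Isg15 and Usp18) differed by −0.08 to 0.13 between virgin and bonded lungs.

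Virgin and bond-disrupted lungs both came from males without a mate at collection. No member was called here either (0 of 8, beside 0% of all genes by limma and by voom, lowest adjusted p 0.944 by limma). No member had an unadjusted p under 0.05, against 4.41% of all genes by limma and 4.59% by voom, and again 8 of 8 overlapped (0.286% of all genes did not). On the log2(FPKM + 1) scale Ifi44 differed most, by 0.23 ± 0.20 (limma, adjusted p = 0.944), with V4 and V5 above all bond-disrupted animals. By voom the largest was that of Rsad2, at −0.29, where Ifi44 had 0.23. Irf7 was 13.7 FPKM in V2, 16.4 in V3, 15.7 in V4, 22.6 in V5 and 16.5 in V6. These values lie in the gap between the high and the low bond-disrupted animals, and the difference was −0.16 ± 0.23 (adjusted p = 0.951). Differences of the 8 members ranged from −0.16 to 0.23, of which 3 were above 0 and 5 below. These 3 comparisons share animals and are not independent.

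**Figure D2:**
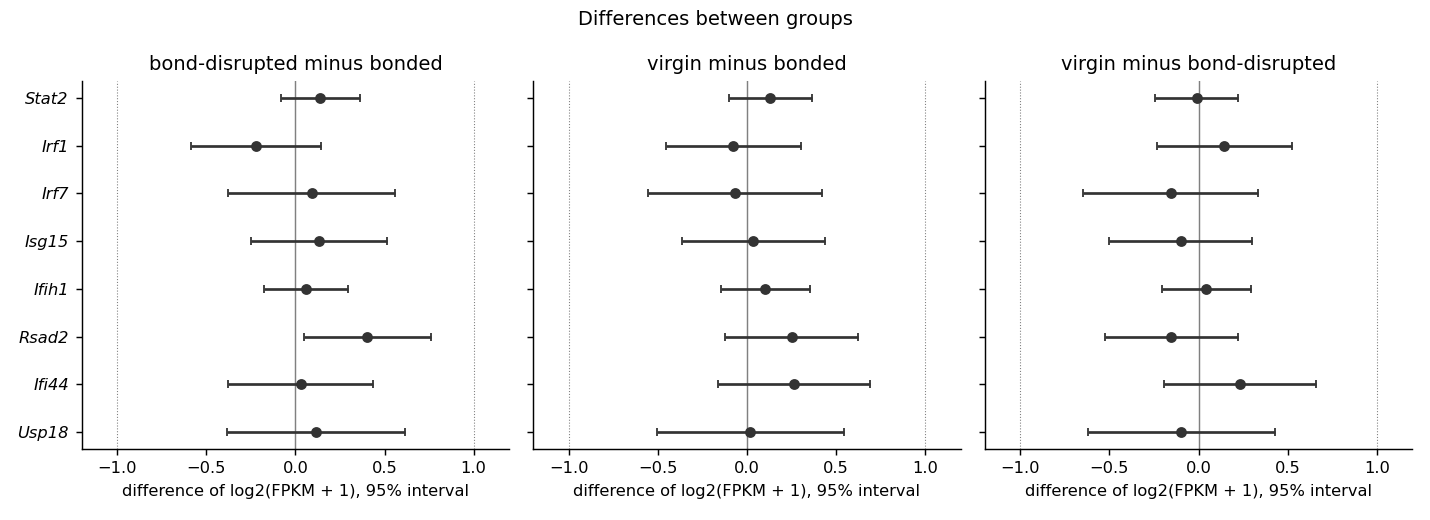
Difference between group means of log2(FPKM + 1) for each gene (points) with its 95% interval (bars) from the limma fit to 17 animals; dotted lines mark 2-fold on this scale. The interval for Rsad2 in bond-disrupted minus bonded lungs (0.05 to 0.76) lies above 0, in a gene that no bonded animal brought to the 1 FPKM needed for testing, and the other 23 intervals cross 0. All 24 stay within the dotted lines, which for Rsad2, a low gene, stand for more than a 2-fold change of FPKM.

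The intervals state what size of change these lungs could hide. For the 24 differences they ran from −0.65 at the lowest to 0.76 at the highest on the log2(FPKM + 1) scale. A 2-fold change of FPKM + 1 thus lay outside each of them. For Rsad2, a low gene, a 2-fold change of FPKM is smaller on this scale, and these intervals do not exclude it. On recovered reads, voom's intervals for Rsad2 were wider, from 0.06 to 1.54 for bond-disrupted minus bonded, from −0.30 to 1.31 for virgin minus bonded and from −1.01 to 0.43 for virgin minus bond-disrupted lungs. A 2-fold change of Rsad2 therefore remained inside the interval in each comparison on that scale.

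The members differed in how much they varied between animals. From the lowest to the highest animal, Rsad2 spanned 5.06-fold, Usp18 3.80-fold and Isg15 3.11-fold, while Ifi44, Irf7 and Irf1 spanned 2.63-fold, 2.60-fold and 2.56-fold. Ifih1 and Stat2 were the steadiest, at 1.82-fold and 1.55-fold. The SD of log2(FPKM + 1) within groups was 0.41 for Irf7, which is more than that of 92.1% of the 2646 genes within 0.5 of its mean log2 level. The same share was 88.7% for Ifi44, 85.1% for Irf1, 82.2% for Usp18 and 69.6% for Isg15. Rsad2 (57.4%), Stat2 (57.2%) and Ifih1 (52.7%) varied about as much as genes of like level. The genes compared are the tested ones, which reached 1 FPKM in at least 1 animal. Steady genes below that level were left out, so that the share for Rsad2 may be too low. By Dixon's test no single animal stood apart from its group in any of the 24 combinations of member and group.

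Several animals were high or low across members. B6 had the lowest value of the 17 animals for Stat2, Irf7, Isg15 and Ifih1, and it lay at or below the median of all animals for 8 of 8 members. B2 likewise was above the median for 0 of 8. BD3 and V5 were above the median for 8 of 8 members, and BD4 and B3 for 7 of 8. BD4 held the highest Isg15 (6.19 FPKM), Ifih1 (9.12 FPKM) and Usp18 (5.55 FPKM) of all. Low and high animals occurred in each group: the number of members above their median ran from 0 to 7 among bonded, from 1 to 8 among bond-disrupted and from 1 to 8 among virgin animals.

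BD2 was mixed. It had the highest Rsad2 (2.23 FPKM) and a high Irf7 (23.8 FPKM), but also the lowest Irf1 (7.33 FPKM) and the lowest Ifi44 (9.05 FPKM) of the 17 animals. V4 combined the highest Ifi44 (23.8 FPKM) and a high Rsad2 (1.69 FPKM) with middling Irf7 (15.7 FPKM) and Usp18 (2.76 FPKM). By the mean of the members' standardised values, B6 ranked 17, BD6, which bears the same number, 16 and V6 11. B3, BD3 and V3 ranked 4, 2 and 13, and B1 and BD1 ranked 5 and 15.

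**Figure D3:**
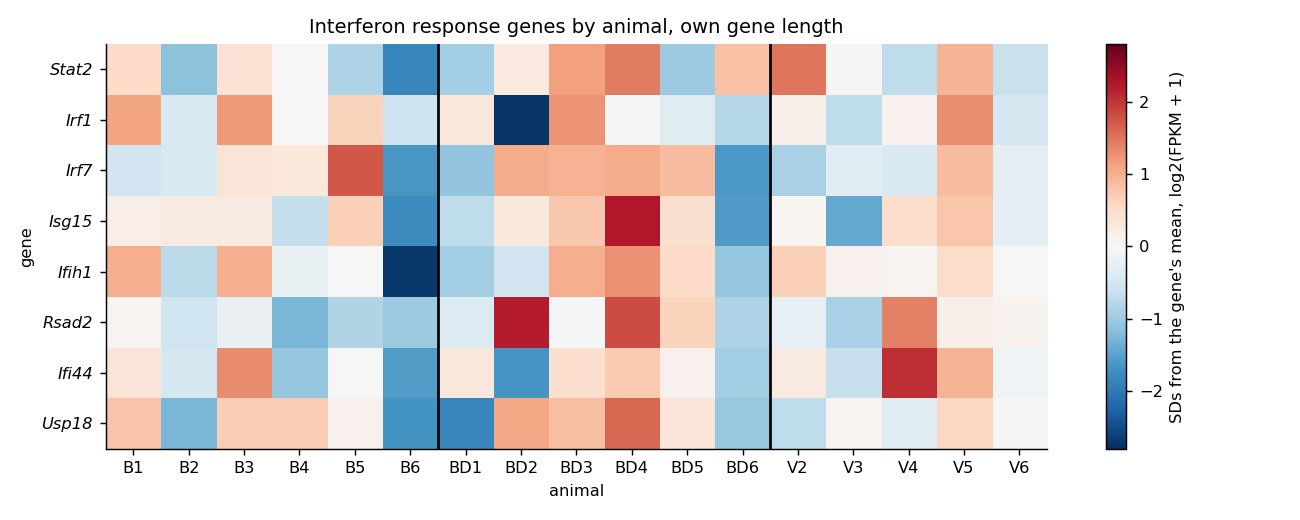
Each cell shows how many SDs an animal (column, in groups parted by black lines) lay from the gene's mean over 17 animals on the log2(FPKM + 1) scale, red above and blue below. B6 is blue throughout, BD3 and BD4 are mostly red, and BD2 is dark red for Rsad2 and dark blue for Irf1.

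Members were set against each other across the 17 animals in 28 pairs, on the log2(FPKM + 1) scale. Pearson's r was above 0 in 27 of 28 pairs, with a median of 0.449. By permutation, adjusted over the 28 pairs, 12 had p under 0.05, and 10 of these also had by Spearman's rho. On deviations from group means it was 11 pairs, so that the relation was also seen within groups. The points share the library and its scaling, and relatives among the animals are not fully independent. On deviations from the means of animals with the same number, as a block, 4 pairs remained under 0.05 (Irf7 with Usp18, Irf1 with Ifi44, and Isg15 with Ifih1 and with Rsad2). Without B6, which was low throughout, 6 pairs were under 0.05.

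The closest pair was Irf7 and Usp18 (r = 0.774, permutation p = 0.00024, adjusted 0.00434; rho = 0.755, permutation p = 0.00072, adjusted 0.00672). Without B5 and B6, the animals farthest from the Irf7 median, r was 0.819 (permutation p = 0.00023). Ifih1 and Usp18 followed (r = 0.755, permutation p = 0.00031, adjusted 0.00434; rho = 0.667, permutation p = 0.00464, adjusted 0.0217), with r = 0.642 without B6 and BD4. Isg15 varied with Irf7 (r = 0.730, permutation p = 0.00092, adjusted 0.00728; rho = 0.770, permutation p = 0.00055, adjusted 0.00672), and r was 0.680 without B5 and B6. Isg15 and its protease gene Usp18 had r = 0.648 (permutation p = 0.00438, adjusted 0.0142; rho = 0.618, permutation p = 0.00966, adjusted 0.027). That value fell to 0.420 (permutation p = 0.117) without BD4 and B6, so that it rested on these animals.

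Irf1 had its highest r with Ifi44, at 0.692 (permutation p = 0.00178, adjusted 0.00997; rho = 0.772, permutation p = 0.00048, adjusted 0.00672), and r was 0.577 (permutation p = 0.0239) without BD2 and V5. With Ifih1 it had r = 0.496 (permutation p = 0.0487, adjusted 0.0973), which was 0.573 on deviations from group means (permutation p = 0.0163, adjusted 0.0415) and 0.576 (permutation p = 0.0227) without BD2 and V5. Ifi44 in turn varied with Ifih1 (r = 0.647, adjusted permutation p = 0.0142) and Isg15 (r = 0.586, adjusted permutation p = 0.0353). Without B6 and BD4 these were 0.539 (permutation p = 0.0378) and 0.496 (permutation p = 0.0604). Without B6 alone the adjusted permutation p was 0.0742 and 0.129, so that both relations leaned on these animals. Irf1 and Usp18 had r = 0.126 (permutation p = 0.637, adjusted 0.637), and Irf1 and Irf7 had r = 0.140 (permutation p = 0.601, adjusted 0.623). Without BD2 and V5 these were 0.449 (permutation p = 0.0963) and 0.437 (permutation p = 0.105). On deviations from the means of animals with the same number they were −0.146 and −0.205. Both values thus depended on the animals and on the block used. Differences between the r of pairs were not tested. The single pair below 0 was Irf1 with Rsad2, at −0.298 (permutation p = 0.242, adjusted 0.339), and r was 0.154 without BD2 and V5. Stat2 varied with Ifih1 (r = 0.660, permutation p = 0.00279, adjusted 0.013; rho = 0.637, permutation p = 0.00727, adjusted 0.027), and r was 0.502 (permutation p = 0.0574) without B6 and V2. For Rsad2 with Ifi44, r was 0.317 over all animals (permutation p = 0.216, adjusted 0.322) and 0.823 without BD2 and BD4.

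**Figure D4:**
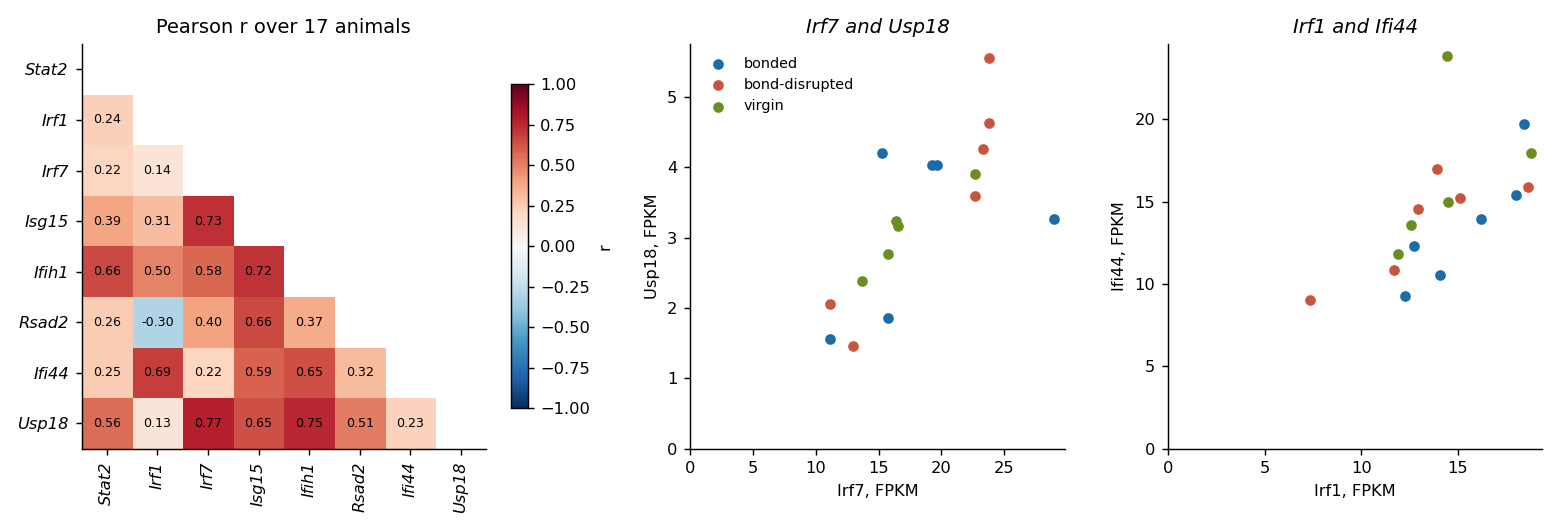
Left, Pearson r over 17 animals for each pair of genes on the log2(FPKM + 1) scale, from blue (below 0) to red (above 0). Middle and right, FPKM of Usp18 against Irf7 and of Ifi44 against Irf1, with 1 point per animal coloured by group. Irf7 and Usp18 reach r = 0.774, Irf1 and Ifi44 0.692, and Irf1 and Rsad2 −0.298, and animals of the 3 groups are mixed along both scatters.

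The rest of the pathway was read from lists of 129 other genes by role, of which 78 are in the table, 75 had all 17 values recovered and 71 were tested. None was called in any comparison (limma, lowest adjusted p 0.812). For bond-disrupted against bonded lungs, 4 of 71 had an unadjusted p under 0.05, 2 in each direction, beside 5.88% of all genes. For virgin against bonded lungs it was 0 of 71, beside 3.74% of all genes, and for virgin against bond-disrupted lungs 1 higher and 1 lower, beside 4.41%. The medians over the 71 genes were 0.04, 0.03 and −0.01 on the log2(FPKM + 1) scale.

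Of the ligands, Ifnb1, the gene of interferon beta, had 0 reads in all 17 animals. Counting error of 3 reads alone allows up to 0.0805 FPKM in the deepest library and 0.178 FPKM in the shallowest. All recovered counts of Rsad2, Ifih1 and Usp18 were even, so that both mates of a fragment may have been counted. In that case these limits are too low. Ifne and Ifnk stayed at or below 0.0884 and 0.282 FPKM. Ifng, the gene of type II interferon, was at 0 in 9 animals and highest in B3, at 0.611 FPKM. Of 13 listed ligands only these 4 were analysed here, and none reached the level needed for the test. Ifnl1, which is not among them, was highest in V5, at 0.0948 FPKM. The receptors were well expressed. Ifngr1, a subunit of the type II receptor, had the highest mean level, 65.6 ± 7.11 FPKM in bond-disrupted lungs and 55.9 ± 5.77 FPKM in bonded lungs. Its log2 difference was 0.23 ± 0.08 (limma, adjusted p = 0.812), and the ranges (55.7 to 77.3 and 44.4 to 60.0 FPKM) overlapped. Ifnar2, a subunit of the type I receptor, lay between 33.2 FPKM (V4) and 48.0 FPKM (B5).

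None of the 12 tested sensors and adaptors, and none of the 11 kinases and transcription factors, had an unadjusted p under 0.05 in any comparison. The most abundant sensors and adaptors were Trim25, a ubiquitin ligase of RNA sensing, at 19.7 (B2) to 26.7 FPKM (BD4), and Sting1, an adaptor of DNA sensing, at 9.88 (BD2) to 43.9 FPKM (V4). The kinase gene Jak1 lay between 44.3 FPKM (BD1) and 63.8 FPKM (V3). Irf3, which starts interferon production, lay between 41.5 FPKM (BD6) and 62.9 FPKM (B3).

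Among 28 antiviral effectors, Eif2ak2, the gene of the double-stranded RNA kinase PKR, had lower values in bond-disrupted than in bonded lungs. It had a median of 19.3 FPKM there, between 15.2 (BD6) and 22.5 (BD3), and of 27.3 FPKM in bonded lungs, between 19.7 (B1) and 30.3 (B3). Apart from overlap with B1, the bonded values were the higher. The log2 difference was −0.42 ± 0.12 (limma, adjusted p = 0.812), and virgins, at 24.7 ± 3.30 FPKM, were above bond-disrupted animals by 0.32 ± 0.12 (adjusted p = 0.944). Uba7, the enzyme that activates ISG15 for conjugation, averaged 14.2 ± 2.85 FPKM in bond-disrupted and 18.7 ± 2.67 FPKM in bonded lungs. The difference was −0.39 ± 0.13 (adjusted p = 0.812). Both had an unadjusted p under 0.05 there, neither passed the adjustment over all genes, and neither reached 2-fold. The other conjugation genes include Arih1, which ranged from 18.1 (V5) to 25.0 FPKM (BD6).

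Bst2, whose product tethers budding virus, averaged 31.9 ± 15.8 FPKM in virgin lungs against 66.6 ± 18.2 FPKM after disruption, a log2 difference of −1.26 ± 0.56 (limma, adjusted p = 0.944). V5 (5.66 FPKM) and B3 (6.39 FPKM) were far below the other 15 animals, which lay between 29.5 and 93.0 FPKM. The most abundant effector was Lgals3bp, a secreted glycoprotein gene, at 59.9 (V2) to 201 FPKM (B6). Of 11 negative regulators, Pias1, which restrains interferon signalling, had 16.9 ± 2.08 FPKM in bond-disrupted and 14.6 ± 0.980 FPKM in bonded lungs, a difference of 0.19 ± 0.08 (adjusted p = 0.812). Ptpn6, a phosphatase gene, was the most abundant of them, at 14.0 (BD2) to 29.5 FPKM (B3). No gene of the list of interferon-induced GTPases was analysed here.

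The pattern of the members over animals was also set beside that of 13122 other genes with a mean of at least 1 FPKM. The measure was Pearson's r over the 17 animals with the mean of the members' standardised log2(FPKM + 1). The 10 genes most alike were LOC128112301 (r = 0.890), LOC128125468 (0.861), LOC128107380 (0.860), LOC128112303 (0.859), Rhof (0.843), LOC128122905 (0.835), Angptl8 (0.828), Orc3 (0.828), LOC128095115 (0.817) and LOC128123151 (0.809). Of these 10, 9 were lowest in B6. LOC128112301 ran from 4.89 FPKM (B6) to 31.7 FPKM (BD4), and LOC128112303 from 3.61 FPKM (B6) to 16.7 FPKM (BD4). Of the 69 pathway genes among those ranked, 14 (20.3%) had an r above 0.5, against 3.09% of all 13122 genes. Their median r was 0.349, where that of all genes was 0.01.

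Markers of cells that the lung samples could hold differed between animals, and their part in these results was not tested. The summed level of 5 macrophage genes was 50.9 to 137 FPKM in bonded, 47.3 to 184 FPKM in bond-disrupted and 49.4 to 106 FPKM in virgin lungs. For 8 lymphocyte genes the ranges were 45.6 to 139, 28.9 to 163 and 64.6 to 147 FPKM. For 5 neutrophil and blood genes they were 32.7 to 247, 28.2 to 95.3 and 58.3 to 102 FPKM, and for 6 genes of plasmacytoid dendritic cells 56.3 to 124, 93.3 to 136 and 46.5 to 93.9 FPKM. Within the last list Bst2 alone ran higher in bond-disrupted (46.2 to 93.0 FPKM) than in virgin lungs (5.66 to 45.3 FPKM) with no overlap (0.286% of all genes did not overlap), while the ranges of the other 5 genes overlapped. Bst2 and Irf8 are themselves interferon-related. BD2, with the lowest Irf1 and Ifi44, also had the lowest macrophage (47.3 FPKM), lymphocyte (28.9 FPKM) and neutrophil and blood (28.2 FPKM) sums. BD4, with the highest Isg15 and Usp18, had the highest lymphocyte sum (163 FPKM). BD6 went the other way, with rank 16 by the members' mean but the highest macrophage sum (184 FPKM) and a lymphocyte sum of 106 FPKM. B6, the lowest animal for 4 of 8 members, had the highest sum of 5 heart muscle genes, at 363 FPKM. V5, which was above the median for 8 of 8 members, came next at 274 FPKM, and the other 15 animals had 34.4 to 221 FPKM. None of the markers measured was at 0 in all animals.

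The deposited values of the members show how far the length shift reached. Stat2 was listed between 13.1 FPKM (BD2) and 1550 FPKM (BD3) as deposited, because lengths from 72 to 7570 bases stood in its row, where its own length is 4673 bases. The SD of log2(FPKM + 1) over 17 animals was 1.89 for Stat2 as deposited and 0.18 with its own length, and for Irf1 it was 2.11 and 0.31. Usp18 was listed from 0.209 FPKM (BD1) to 56.1 FPKM (B4), a 269-fold range, which became 3.80-fold with its own length of 1433 bases.

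**Figure D5:**
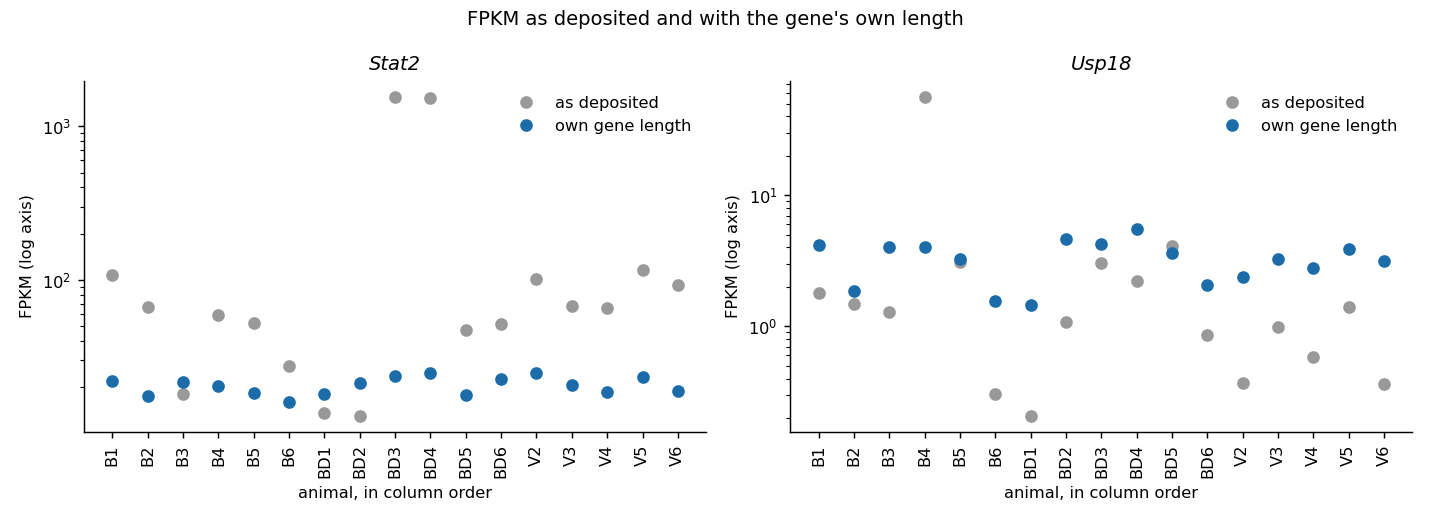
FPKM on a log axis of Stat2 (left) and Usp18 (right) in each of the 17 animals in column order, as deposited (grey) and with the gene's own length (blue). Grey points of Stat2 reach 1550 in BD3 while the blue ones stay between 16.1 and 25.0, and those of Usp18 spread from 0.209 to 56.1 while the blue ones stay between 1.46 and 5.55.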

How the data were processed

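Strand-specific libraries were made from total lung RNA. The submitters' processing notes name Trim Galore 0.4.5, STAR 2.7.2, SAMtools 1.5 and featureCounts of Subread 1.5.3; genome build and annotation are not given in the sources used here. The authors deposited FPKM, with 0 columns left over, and all 27786 symbols matched RefSeq's table of ASM782708v3. Integer gene lengths and library depths were solved so that each FPKM value corresponds to whole reads, within 0.02 reads (98.1% of 352581 values above 0), and 1462 of 1567 small RNA lengths equalled those of RefSeq. Values shared by overlapping genes hold fractions of reads; those of the members do not. FPKM with each gene's own length was tested as log2(FPKM + 1) for the 14695 genes that reached 1 FPKM in any animal, using limma 3.58.1 in R 4.3.3 (3 groups in 1 fit, no trend, two-sided, Benjamini-Hochberg), with a call at adjusted p under 0.1 and 2-fold. Voom used genes averaging 10 reads or more. Pairs of members used 100000 two-sided permutations (numpy 2.4.6). Replicate numbers mark families in the study; deviations of same-numbered animals correlated from −0.333 to 0.408, above 0.1 in 6 of 16 pairs. Animals are the replicates, and the intervals of limma and voom cover the spread between them. The members, the role lists and the marker lists were chosen with earlier results of these data known. The text names all members, the genes of a role list with an unadjusted p under 0.05 (at most 6) and the 2 most abundant, and the 10 genes most alike. Steps were tested on simulated data. Alternatives were another pseudocount, no filter, a filter on the mean, a trend, a median-ratio factor, quantile normalization, only the groups compared, an adjusted p under 0.05, voom, the replicate block, a joint fit of row and diagonal effects, the values as deposited, and leaving out each animal.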

Additional observations from a re-analysis of the deposited data

How the results depend on the processing

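No member was called under any of the alternatives run. With the values as deposited, which carry the shifted lengths, 40 genes were called for bond-disrupted against bonded, 113 for virgin against bonded and 35 for virgin against bond-disrupted lungs, and 0 members. Without B4, 1 gene was called for bond-disrupted against bonded and 1 for virgin against bonded lungs, so that leaving out 1 animal gave 0 to 1 genes in these comparisons and 0 in the other. With the filter on the mean, Rsad2 was not tested, and depth limits this gene most, at 52 to 446 reads per animal. The 12 pairs of members with an adjusted p under 0.05 became 4 with the replicate block and 6 to 14 with 1 animal left out, lowest without B6; these alternatives were chosen after seeing the data.

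Of 261 member differences under other settings on corrected values, 4 changed sign. The joint fit of row and diagonal effects gave −0.0610 for Ifih1 and −0.0500 for Ifi44 in bond-disrupted against bonded lungs and −0.0458 for Ifih1 in virgin against bonded lungs. The replicate block gave −0.0248 for Usp18 in virgin against bonded lungs. It changed no other direction and no call of a gene, and the cause was not tested. As deposited, 11 of 24 member differences changed sign. For bond-disrupted against bonded lungs these were 0.741 (Irf1), −0.0266 (Ifih1) and −0.664 (Usp18). For virgin against bonded lungs they were 0.0844 (Irf1), 1.04 (Irf7), −1.22 (Ifih1), −0.283 (Rsad2) and −1.28 (Usp18), and for virgin against bond-disrupted lungs −0.657 (Irf1), 0.970 (Isg15) and −1.19 (Ifih1).

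Of 408 member differences with 1 animal left out, 26 changed sign. For bond-disrupted against bonded lungs the ranges that crossed 0 were −0.0327 to 0.231 (Irf7), −0.0315 to 0.109 (Ifih1), −0.0616 to 0.140 (Ifi44) and −0.0126 to 0.280 (Usp18), each lowest without B6. For virgin against bonded lungs they were −0.190 to 0.0713 (Irf7), −0.0645 to 0.142 (Isg15) and −0.109 to 0.0948 (Usp18), again lowest without B6. For virgin against bond-disrupted lungs they were −0.0677 to 0.0330 (Stat2), −0.00116 to 0.246 (Irf1), −0.214 to 0.0274 (Isg15) and −0.261 to 0.0220 (Usp18).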

Other observations

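The genes of this paragraph were picked from the role lists after their values had been seen, and no explanation was tested. The chemokine genes Cxcl9 and Cxcl10, classical targets of interferon gamma, were high in a few animals of different groups. Cxcl9 was 5.42 FPKM in B3, 6.01 in BD3 and 4.79 in BD6, and 0.121 to 1.39 FPKM in the other 14 animals. B3, BD3 and BD6 also had the highest summed levels of 5 macrophage genes (137, 130 and 184 FPKM). B4 was close behind BD3 in that sum but had 0.704 FPKM of Cxcl9. The part of macrophages was not tested. Cxcl10 was 26.2 FPKM in BD3, 9.88 in B3, 6.36 in V4 and 4.56 in BD6, and 0.374 to 3.32 FPKM in the other 13. BD6 thus had high chemokine transcripts beside the lowest Irf7 and Isg15 of its group, at 11.2 and 2.11 FPKM.

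Oas3, which encodes an enzyme of the RNase L pathway, spanned a wider fold range than any member, from 0.0388 FPKM in B6 to 2.79 FPKM in V5. It was 0.136 FPKM in B1 and 0.144 FPKM in B2 but 2.77 FPKM in B3 and 2.67 FPKM in B5, so that bonded animals alone covered most of the range. V5 and B3, which had the highest Oas3, had the lowest Bst2 (5.66 and 6.39 FPKM), but B5 and V6, with Oas3 at 2.67 and 2.36 FPKM, had Bst2 at 80.7 and 42.2 FPKM.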
